A study of Mus musculus with 6 samples.

Results

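The genes described here are 10 transcription factors and cofactors that form the core of the erythroid program, namely *Gata1*, *Gata2*, *Zfpm1*, *Tal1*, *Lyl1*, *Lmo2*, *Ldb1*, *Klf1*, *Cbfa2t3* and *Nfe2*. They were chosen by name, through the Ensembl identifier of each gene, and all 10 were among the 12101 genes measured. RNA-seq was performed on megakaryocyte–erythroid progenitors (MEPs), the bone marrow precursors of red blood cells and of platelet-shedding megakaryocytes, sorted from adult *Nanog*-tg mice labelled as strain CD-1. All mice carried a *tetO-Nanog* cassette at the *Col1a1* locus together with the *M2-rtTA* transactivator at *Rosa26*, so that *Nanog* is switched on by doxycycline (dox) throughout the body and not in blood cells alone. The comparison is between 3 libraries from mice given dox in the drinking water for 5 days and 3 libraries from untreated mice of the same genotype, and it asks how these factors are expressed in MEPs when *Nanog* is induced. No dox-treated mice without the transgenes were analysed here, so dox and *Nanog* cannot be told apart.

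GATA1 is the factor without which red cells do not mature, and GATA2 is its relative in stem cells, early progenitors and mast cells. As erythroid cells mature, GATA1 takes the place of GATA2 at many of the same DNA sites. ZFPM1, also called FOG1, binds GATA1 and is needed for much of its activity, while TAL1 or its paralog LYL1, paired with an E protein, is joined to GATA factors through LMO2 and LDB1 in a complex that sits on erythroid enhancers. KLF1 activates globin and many other red cell genes, CBFA2T3 (ETO2) holds the TAL1 complex in a repressed state in progenitors, and NFE2 is best known for its part in platelet release and globin expression.

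*Nanog* itself was at 1256, 1460 and 1024 CPM (reads per 1000000 of the normalized library size) in dox-treated replicates 1, 2 and 3, against 0.700, 0.961 and 0.091 CPM in the untreated ones (limma adjusted p = 0.0035), which fits the labels of all 6 libraries. Between 11264803 and 16153600 reads per library fell on the listed genes, and a single read was worth 0.0642 to 0.091 CPM. The 10 factors were read at 686 to 7449 reads in each library. Dox-treated replicate 3 stood apart from the other dox-treated libraries: on the first principal component it lay at -14.8, between the other dox-treated libraries (-57.5 and -56.3) and the untreated ones (35.1 to 54.2). Results that rest on it are therefore given with and without it. The labels do not say that replicates came from separate mice, so p-values measure the spread between these libraries, which may be technical.

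No member passed the threshold of adjusted p under 0.05 when all 6 libraries were used (limma, adjusted over 12088 genes). The count was 0 of 10 higher with dox, where 4.59% of all genes tested were called higher, and 0 of 10 lower, where 3.18% were called lower. At an unadjusted p under 0.05 there were 1 member on the higher side (*Gata2*) and 4 on the lower side (*Gata1*, *Zfpm1*, *Klf1* and *Cbfa2t3*), beside 29.2% of all genes in both directions. By the position of the libraries, 2 members had every dox-treated value above every untreated value (17.7% of all genes did), and 5 members had every dox-treated value below (18.2% of all genes did). The median log2 difference of the 10 members was -0.20, compared with -0.03 over all genes tested, and the median size of the difference was 0.35 against 0.27. When dox-treated replicate 3 was left out, *Gata2* was called higher and *Gata1* and *Klf1* lower, in a fit that called 14.9% of all genes higher and 14.0% lower. With precision weights from voom on all 6 libraries, *Gata2* alone of the 10 was called, in a fit that called 615 of the 12088 genes higher and 570 lower.

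**Figure D1:**
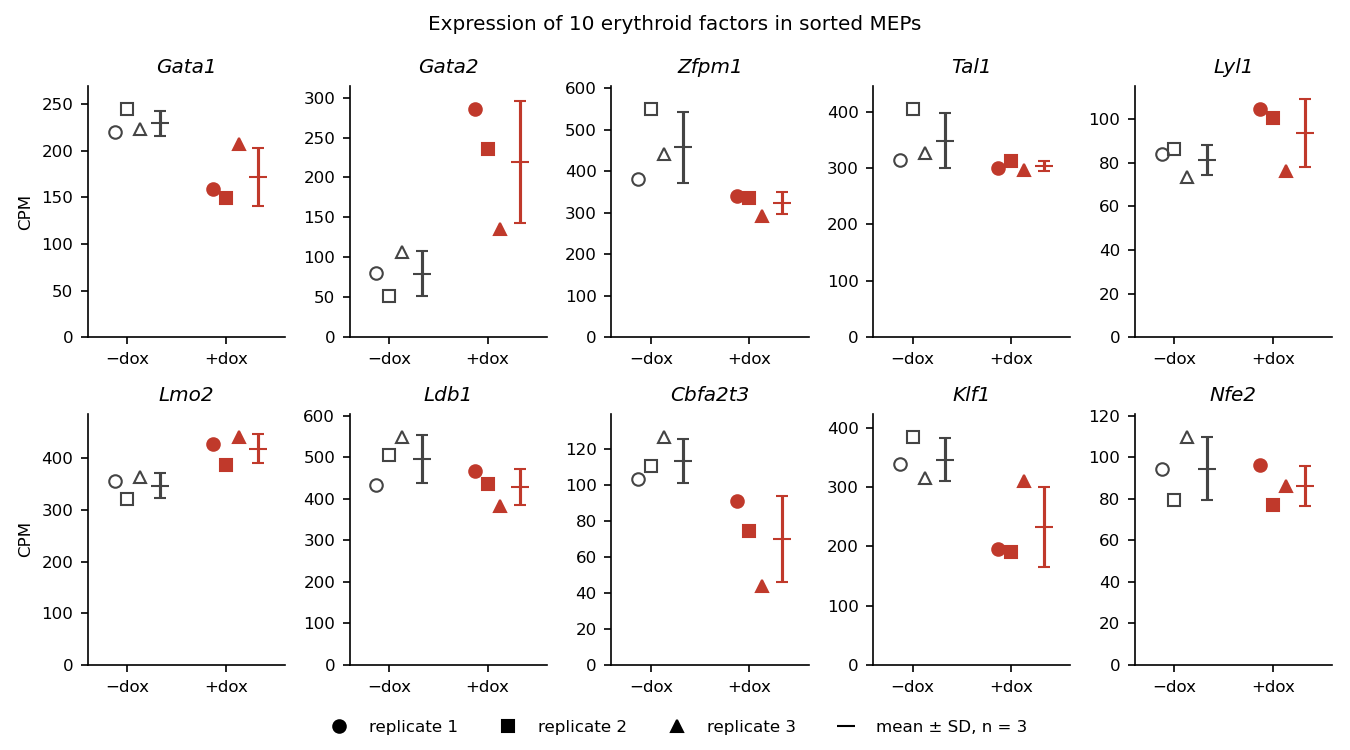
CPM (vertical axes, from 0) of each of the 10 factors in the 3 untreated (−dox, open grey symbols) and 3 dox-treated (+dox, filled red symbols) MEP libraries, with the symbol shape giving the replicate number and the bar the mean ± SD (n = 3). *Gata2* is the member with the widest separation upward, from at most 107.3 CPM without dox to at least 135.8 CPM with dox, and replicate 3 (triangle) of the dox-treated group lies nearest to the untreated values for *Gata1*, *Gata2* and *Klf1*.

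Of the GATA factors, *Gata2* showed the widest difference of all 10 members. *Gata2* (NCBIM37 chr6:88143885-88157024, plus strand) was at 285.9, 235.9 and 135.8 CPM in dox-treated replicates 1, 2 and 3 and at 79.9, 51.8 and 107.3 CPM in untreated replicates 1, 2 and 3. All dox-treated libraries were above all untreated ones, with the lowest dox-treated value (replicate 3) close to the highest untreated value (replicate 3). The means were 219.2 ± 76.4 CPM and 79.6 ± 27.7 CPM (SD, n = 3 each), and the log2 difference was 1.46 ± 0.37 (SE; 95% interval 0.54 to 2.37), a fold of 2.74, with adjusted p = 0.070 in limma. Without dox-treated replicate 3 the log2 difference was 1.77 (limma adjusted p = 0.025). The exact two-sided permutation test over libraries gave p = 0.1, which is the smallest p that 3 libraries against 3 allow.

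*Gata1* (NCBIM37 chrX:7536386-7555197, minus strand) was at 159.3, 149.2 and 206.9 CPM with dox and at 220.3, 245.0 and 223.2 CPM without. Every dox-treated value was below every untreated value, with replicate 3 the nearest to the untreated group. The means were 171.8 ± 30.8 and 229.5 ± 13.5 CPM (SD, n = 3 each), and the log2 difference was -0.43 ± 0.15 (SE; 95% interval -0.80 to -0.06; limma adjusted p = 0.130). Leaving out dox-treated replicate 3 gave -0.57 (limma adjusted p = 0.020).

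The GATA1 cofactor *Zfpm1* (chr8:124806039-124861146, plus strand) was at 341.4, 336.2 and 292.8 CPM with dox and at 382.3, 550.5 and 440.8 CPM without. The dox-treated libraries were all lower and close together, while untreated replicate 2 was well above its group. The log2 difference was -0.49 ± 0.16 (SE; 95% interval -0.89 to -0.09; limma adjusted p = 0.117), and it was -0.42 without dox-treated replicate 3 (limma adjusted p = 0.127). *Zfpm1* lies inside the span of a predicted gene on the same strand, *Gm20388*, with which it shares 0 bases of exon in the annotation.

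The sequences just upstream of the annotated starts of the GATA genes are shown because *Gata2* and *Gata1* gave opposite differences. They are the 250 bases before each RefSeq start (build GRCm38.p6, a later build than that of the gene positions given for the RNA-seq), written 5′ to 3′ on the strand of the gene. Capitals mark matches on either strand to 3 motifs: the GATA motif (searched as AGATAA and its variant AGATAG, and with T as the first base as TGATAA and its variant TGATAG), the E-box bound by TAL1 with E proteins (CAGATG) and the CACC box bound by KLF1 and its relatives (CCNCNCCC). Overlapping matches run together, and N stands for any base. *Gata1* has a single start in this table (chrX:7967911-7968160, minus strand) and *Gata2* has 2 (chr6:88193641-88193890 and chr6:88198414-88198663, plus strand).
Gata1: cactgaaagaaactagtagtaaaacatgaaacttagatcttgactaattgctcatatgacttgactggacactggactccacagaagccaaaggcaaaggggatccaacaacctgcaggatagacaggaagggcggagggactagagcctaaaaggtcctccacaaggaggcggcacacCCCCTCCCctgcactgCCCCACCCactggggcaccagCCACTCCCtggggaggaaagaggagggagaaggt
Gata2 first start: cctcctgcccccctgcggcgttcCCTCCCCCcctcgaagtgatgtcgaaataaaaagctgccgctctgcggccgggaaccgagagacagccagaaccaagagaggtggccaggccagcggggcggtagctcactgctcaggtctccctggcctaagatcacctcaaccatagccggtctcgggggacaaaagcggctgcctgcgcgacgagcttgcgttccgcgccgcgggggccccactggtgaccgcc
Gata2 second start: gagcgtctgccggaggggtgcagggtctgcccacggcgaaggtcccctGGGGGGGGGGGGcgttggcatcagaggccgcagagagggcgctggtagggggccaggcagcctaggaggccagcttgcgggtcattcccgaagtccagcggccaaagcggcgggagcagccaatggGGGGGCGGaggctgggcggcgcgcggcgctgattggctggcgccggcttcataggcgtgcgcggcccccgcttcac
None of these windows holds the GATA motif or the E-box. The *Gata1* window holds CACC boxes that begin 71, 55 and 34 bases before the start, that of the first *Gata2* start holds 1, and that of the second holds 6, of which 5 overlap within a single run of G. A match to these letters is a description of the sequence and no evidence of binding.

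Of the members of the TAL1 complex, *Tal1*, *Lyl1*, *Lmo2* and *Ldb1* had differences of 0.27 or less in size on the log2 scale, and *Cbfa2t3* a larger one. *Tal1* (chr4:114729031-114744360, plus strand) was at 300.1, 312.7 and 296.7 CPM with dox and at 313.9, 405.0 and 327.2 CPM without. The dox-treated values were all below the untreated ones, but the highest dox-treated and the lowest untreated library were almost level. The means were 303.1 ± 8.42 and 348.7 ± 49.2 CPM (SD, n = 3 each), and the log2 difference was -0.19 ± 0.13 (SE; 95% interval -0.51 to 0.13; limma adjusted p = 0.359). The interval runs from a fold of 0.702 to a fold of 1.09 and includes no difference. It was -0.18 without dox-treated replicate 3 (limma adjusted p = 0.362) and -0.08 without untreated replicate 2, the highest untreated library.

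*Lyl1* (chr8:87225356-87228614, plus strand), the paralog that can stand in for TAL1 in progenitors, was at 104.6, 100.3 and 75.9 CPM with dox and at 84.0, 86.2 and 73.2 CPM without. Dox-treated replicates 1 and 2 were above all untreated libraries and replicate 3 was within them, so the groups overlapped. The log2 difference was 0.20 ± 0.16 (SE; 95% interval -0.20 to 0.59; limma adjusted p = 0.446), and 0.34 without dox-treated replicate 3 (limma adjusted p = 0.071). It was 0.11 without dox-treated replicate 1 and 0.12 without untreated replicate 3.

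*Lmo2* (chr2:103798143-103822035, plus strand), the bridge between TAL1 and the GATA factor, was at 427.9, 386.7 and 442.1 CPM with dox and at 357.0, 320.5 and 364.3 CPM without. All dox-treated libraries were above all untreated ones, replicate 3 included. The log2 difference was 0.27 ± 0.11 (SE; 95% interval -0.0013 to 0.54; limma adjusted p = 0.172). *Lmo2* and *Gata2* were the only members whose groups were fully separated in the upward direction.

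*Ldb1* (chr19:46107083-46119704, minus strand), the adaptor that lets distant LMO2 complexes associate, was at 467.8, 436.9 and 383.0 CPM with dox and at 433.6, 505.1 and 549.9 CPM without. The groups overlapped, since untreated replicate 1 was below dox-treated replicates 1 and 2. The log2 difference was -0.21 ± 0.14 (SE; 95% interval -0.55 to 0.13; limma adjusted p = 0.359), and -0.13 without dox-treated replicate 3 (limma adjusted p = 0.478) or without untreated replicate 3. *Ldb1* shares 177 bases (4.94%) of its annotated exons with *Pprc1* on the opposite strand, and because the use of strand in counting is not given in the sources used here, reads from those bases could belong to either gene.

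*Cbfa2t3* (chr8:125152639-125223009, minus strand), the corepressor of the complex, had the most negative difference of the 10 members. It was at 90.9, 74.4 and 44.0 CPM with dox and at 103.0, 110.3 and 126.7 CPM without. All dox-treated values were below all untreated ones, and in contrast to *Gata1*, *Gata2* and *Klf1* the dox-treated library farthest from the untreated group was replicate 3. The log2 difference was -0.76 ± 0.28 (SE; 95% interval -1.44 to -0.07), 1.69-fold lower with dox (limma adjusted p = 0.139). It was -0.46 without dox-treated replicate 3 (limma adjusted p = 0.071), so that library moved the estimate by more than 1.5 times on the log2 scale. *Cbfa2t3* shares 295 bases (6.18%) of its annotated exons with *Gm10612* on the opposite strand.

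*Klf1* (chr8:87425827-87429194, plus strand) was at 195.7, 190.9 and 310.6 CPM with dox and at 338.6, 384.8 and 314.4 CPM without. Dox-treated replicates 1 and 2 were far below the untreated group, while replicate 3 was almost level with its lowest library. The means were 232.4 ± 67.8 and 345.9 ± 35.8 CPM (SD, n = 3 each), and the log2 difference was -0.61 ± 0.22 (SE; 95% interval -1.14 to -0.07), 1.52-fold lower with dox (limma adjusted p = 0.133). Without dox-treated replicate 3 it was -0.83 (limma adjusted p = 0.015), the largest negative difference among the members in that fit.

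*Nfe2* (chr15:103078643-103088834, minus strand) was at 96.2, 76.9 and 86.1 CPM with dox and at 94.6, 79.4 and 110.1 CPM without. The groups overlapped throughout, and the log2 difference was -0.13 ± 0.16 (SE; 95% interval -0.52 to 0.27; limma adjusted p = 0.629). Single libraries moved this small value, to -0.25 without untreated replicate 2, -0.01 without untreated replicate 3, -0.21 without dox-treated replicate 1 and -0.04 without dox-treated replicate 2.

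Of the 13 member windows, only those of *Klf1* and of the first *Cbfa2t3* start held both a GATA motif and an E-box, and these are shown. The window of the second *Cbfa2t3* start (chr8:122678176-122678425, minus strand) held neither. Whether these motifs bear on the expression differences was not tested. The *Klf1* window is chr8:84901732-84901981 (plus strand) and that of the first *Cbfa2t3* start is chr8:122699110-122699359 (minus strand), with build, orientation and capitals as for the GATA genes.
Klf1: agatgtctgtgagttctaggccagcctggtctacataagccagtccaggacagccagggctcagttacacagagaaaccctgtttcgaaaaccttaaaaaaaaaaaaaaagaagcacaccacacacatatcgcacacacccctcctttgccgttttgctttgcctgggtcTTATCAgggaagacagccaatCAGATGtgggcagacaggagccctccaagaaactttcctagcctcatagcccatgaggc
Cbfa2t3 first start: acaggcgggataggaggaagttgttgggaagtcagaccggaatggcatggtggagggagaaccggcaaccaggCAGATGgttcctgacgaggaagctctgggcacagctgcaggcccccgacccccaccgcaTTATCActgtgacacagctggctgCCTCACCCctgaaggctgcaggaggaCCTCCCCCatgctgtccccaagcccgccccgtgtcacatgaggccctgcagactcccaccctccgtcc
In the *Klf1* window the GATA motif, read on the opposite strand as TTATCA, begins 80 bases before the start and the E-box 59 bases before it. In the *Cbfa2t3* window the E-box begins 177 bases and the GATA motif 118 bases before the start, followed by CACC boxes at 94 and 68 bases. Over the 13 windows of the 8 members found in the RefSeq table (*Lmo2* and *Nfe2* were not matched), 4 held a GATA motif, 2 an E-box and 11 a CACC box, which are 30.8%, 15.4% and 84.6%. Among 32851 windows of the same length for all genes the shares were 26.5%, 14.4% and 45.9%. Windows of the same gene are not independent of each other, CACC boxes depend on base composition, and no test was made.

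**Figure D2:**
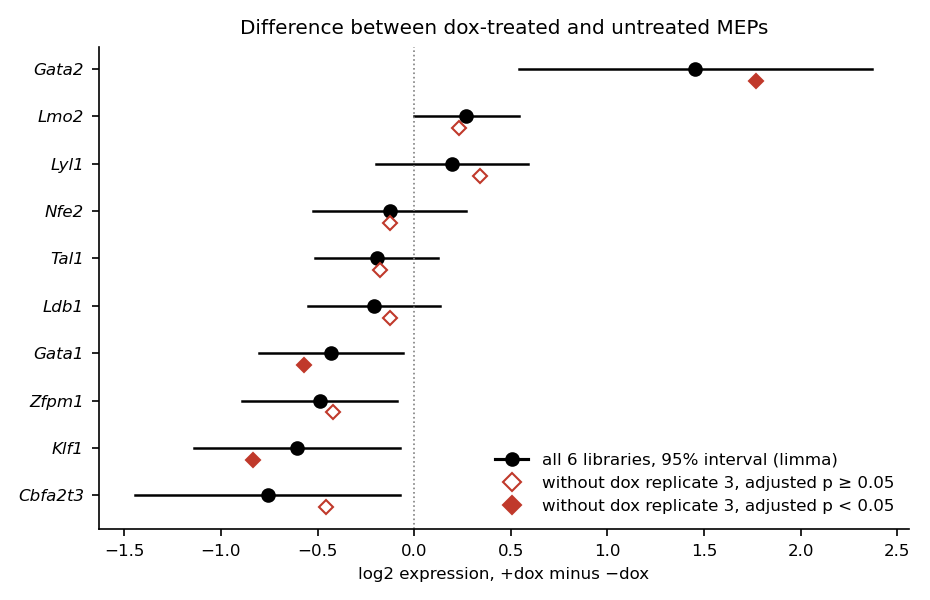
Difference in log2 expression between dox-treated and untreated MEPs (horizontal axis) for the 10 factors, ordered by size. Black points and lines are the estimate and 95% interval from all 6 libraries in limma, and red diamonds are the estimate without dox-treated replicate 3, filled where its adjusted p is under 0.05. *Gata2*, *Gata1* and *Klf1* have filled diamonds, and of these *Gata2* is at 1.77, *Gata1* at -0.57 and *Klf1* at -0.83.

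The part that dox-treated replicate 3 played differed from member to member. In this library *Gata2* was 0.83 above the untreated mean on the log2 scale, against 1.77 for the other dox-treated libraries, *Gata1* was 0.15 below against 0.57, and *Klf1* was 0.15 below against 0.83. For *Zfpm1*, *Ldb1*, *Cbfa2t3*, *Tal1* and *Lmo2* it was the dox-treated library farthest from the untreated mean, at -0.63, -0.37, -1.36, -0.22 and 0.35. For *Lyl1* and *Nfe2* its value lay within the untreated range. *Tal1* and *Lmo2* varied little among the dox-treated libraries, with ranges of 0.08 and 0.19 on the log2 scale, whereas *Gata2* and *Cbfa2t3* spanned 1.07 and 1.04. In the untreated group *Gata2* had the widest range as well, at 1.05, and *Gata1* the narrowest, at 0.15.

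Because GATA2 is replaced by GATA1 as erythroid cells mature, and KLF1 and FLI1 mark the erythroid and megakaryocytic branches, these pairs were also compared within each library, where any factor that scales the whole library cancels out. The reads of *Gata1* were 0.557, 0.632 and 1.52 times those of *Gata2* in dox-treated replicates 1, 2 and 3, and 2.76, 4.73 and 2.08 times in the untreated ones. *Gata1* had more reads than *Gata2* in every untreated library and fewer in dox-treated replicates 1 and 2. The within-library log2 difference averaged -0.30 ± 0.79 with dox and 1.59 ± 0.60 without (SD, n = 3 each), a 3.70-fold lower ratio with dox (exact permutation p = 0.1, the smallest possible). This ratio is not independent of the differences of *Gata1* and *Gata2* given above.

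*Klf1* exceeded *Fli1* in all libraries, by 2.14, 2.10 and 3.32 on the log2 scale with dox and by 3.64, 5.02 and 3.86 without. The groups did not overlap, and the difference between their means was -1.65, or 3.14-fold (exact permutation p = 0.1). *Gata1* exceeded *Spi1*, the factor of myeloid cells that opposes GATA1, by 2.29, 2.03 and 3.58 with dox and by 2.71, 3.94 and 3.07 without. Here the groups overlapped and the difference of the means was -0.60 (exact permutation p = 0.4). It was -1.08 without dox-treated replicate 3, -0.30 without dox-treated replicate 2 and -0.26 without untreated replicate 2. The differences of *Gata1* minus *Gata2* and of *Klf1* minus *Fli1* were -2.34 and -2.05 without dox-treated replicate 3.

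**Figure D3:**
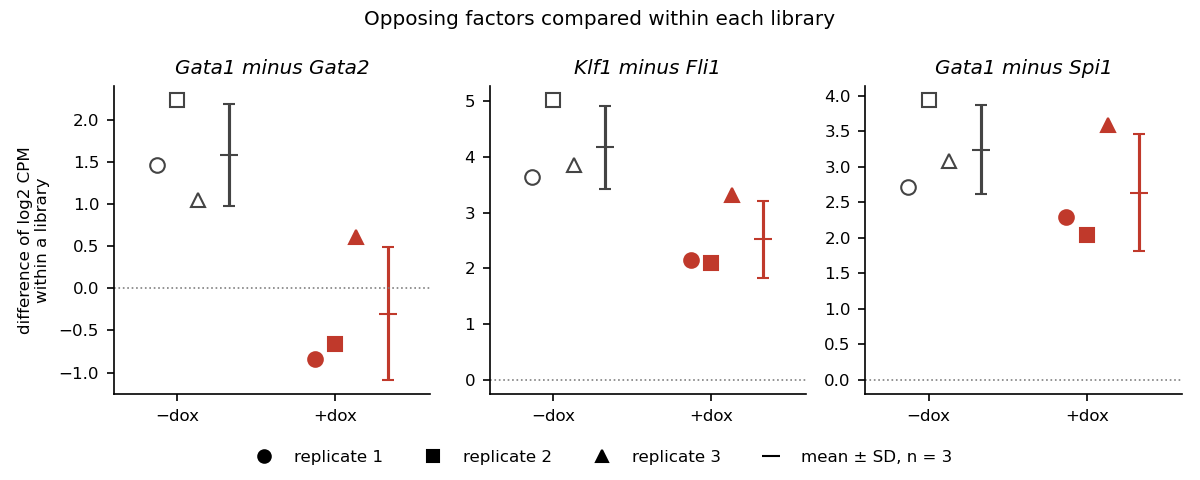
Difference of log2 CPM between 2 genes of the same library (vertical axes) for *Gata1* minus *Gata2*, *Klf1* minus *Fli1* and *Gata1* minus *Spi1*, with open grey symbols for untreated and filled red symbols for dox-treated MEPs, symbol shape for the replicate number and bars for the mean ± SD (n = 3). The groups are separated in the first and second panels and overlap in the third, and dox-treated replicate 3 lies at the top of its group in all of them.

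Levels were compared between members per kilobase of the longest coding transcript in the annotation. In untreated MEPs *Klf1* was at 225.5 ± 23.3 CPM per kb (SD, n = 3), followed by *Ldb1* (216.2 ± 25.6) and *Lmo2* (203.5 ± 13.7), and these neighbours in the order overlapped. *Zfpm1* (135.2 ± 25.2) and *Gata1* (120.7 ± 7.12) came next and overlapped each other, then *Tal1* (82.8 ± 11.7), which overlapped neither neighbour. *Nfe2* (50.4 ± 8.18) and *Lyl1* (45.1 ± 3.84) overlapped, as did the lowest pair, *Cbfa2t3* (28.0 ± 3.0) and *Gata2* (24.6 ± 8.56). All 10 were well expressed, between the 67.8 and 97.9 percentiles of the 11306 genes with a length.

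With dox the order of these levels differed, by 2 places or more for *Lmo2*, *Klf1*, *Nfe2* and *Gata2*. *Lmo2* came first at 245.5 ± 16.9 CPM per kb, separate from *Ldb1* (187.0 ± 18.7), which overlapped *Klf1* (151.5 ± 44.2). *Gata2*, last without dox, was at 67.6 ± 23.6 CPM per kb and overlapped both of its neighbours, *Tal1* (72.0 ± 2.0) and *Lyl1* (52.0 ± 8.61). *Cbfa2t3* came last at 17.2 ± 5.87 CPM per kb, below all values of *Nfe2* (46.0 ± 5.13).

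Genes with the pattern most like that of a member were sought among 9987 genes (mean of 5 CPM or more), as the smallest root mean square difference of centred log2 values over the 6 libraries. For *Gata1* they were *Rfc5*, *Gen1* and *Sec23ip*, at 0.024 to 0.026. For *Klf1* they were *Hebp1*, *Polq* and *Slc16a1*, at 0.037 to 0.046. For *Gata2* they were *Cul9*, *Calcoco1* and *Mfsd6*, at 0.060 to 0.13. Among the pairs of members that include *Gata1*, *Gata2* or *Klf1*, *Klf1* and *Gata1* were most alike, at 0.13, with *Klf1* ranked 1249 by likeness to *Gata1* and *Gata1* ranked 224 by likeness to *Klf1*. With 6 libraries in 2 groups these values describe a shared profile and no more.

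The genes around the core factors are given as counts, to be read against the 4.59% of all genes called higher and 3.18% called lower with all 6 libraries, and the 14.9% and 14.0% without dox-treated replicate 3. Of the 21 partners of the complexes that were tested (E proteins, SSBP and MAF proteins and the corepressors that GATA1 and ETO2 recruit), 0 were called higher and 1 lower (3.18% of all genes were), with a median log2 difference of -0.15 (-0.03 over all genes). Without dox-treated replicate 3 there were 1 higher and 4 lower, and without any other single library 0 in both directions. The one called with all libraries was *Ssbp3*, whose product stabilises LDB1. It was at 107.0, 99.2 and 108.6 CPM with dox and at 149.4, 168.0 and 162.1 CPM without, a log2 difference of -0.61 ± 0.10 (SE; limma adjusted p = 0.029). The groups were well apart, with replicate 3 at the same level as the other dox-treated libraries. The E protein genes *Tcf4* and *Tcf3* had log2 differences of 0.59 (limma adjusted p = 0.055) and -0.39 (limma adjusted p = 0.075), and the corepressor *Rcor1* was at -0.38 (limma adjusted p = 0.076). All 3 passed the threshold without dox-treated replicate 3, with limma adjusted p of 0.036, 0.042 and 0.0497.

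Among the 5 antagonists tested, 1 was called higher (4.59% of all genes were) and 1 lower (3.18%). The higher call was made whichever library was left out, and the lower one was lost without dox-treated replicate 1, dox-treated replicate 2 or untreated replicate 3. *Id1*, whose product binds E proteins and keeps them from pairing with TAL1, was at 4.71, 5.06 and 3.59 CPM with dox and at 0.311, 0.296 and 0.182 CPM without, the latter from 4, 4 and 2 reads. The log2 difference was 3.90 ± 0.22 (SE; limma adjusted p = 0.0026), resting on few reads in the untreated group. *Id2*, of the same family, was at 1.62, 1.27 and 1.80 CPM with dox and at 7.85, 4.43 and 6.37 CPM without, a log2 difference of -1.95 ± 0.25 (SE; limma adjusted p = 0.015). *Cebpa*, a myeloid factor that opposes the erythroid fate, was at 14.9, 8.34 and 8.73 CPM with dox and at 41.8, 19.1 and 36.8 CPM without (log2 difference -1.58, limma adjusted p = 0.058). *Fli1* was at 44.3, 44.5 and 31.1 CPM with dox and at 27.1, 11.8 and 21.7 CPM without (log2 difference 1.04, limma adjusted p = 0.107). The groups did not overlap for either gene, and neither passed the threshold.

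Of 37 erythroid genes that GATA1, TAL1 or KLF1 are known to activate, 0 were called higher and 5 lower (4.59% and 3.18% of all genes were), with a median log2 difference of -0.26. The genes called lower included *Epb42* (-1.58, limma adjusted p = 0.035) and *Add2* (-1.19, limma adjusted p = 0.035), components of the red cell membrane skeleton, *Trim58* (-0.85, limma adjusted p = 0.029), a ubiquitin ligase of late erythroblasts, and *Ermap* (-0.77, limma adjusted p = 0.024), a red cell surface protein. The summed level of the list, which follows its most abundant genes, was 7326 and 7093 CPM in dox-treated replicates 1 and 2. It was 11834 CPM in replicate 3, above the untreated range of 10708 to 11377 CPM. The mean log2 CPM of the 37 genes was 6.32 and 6.37 in dox-treated replicates 1 and 2 and 6.73 in replicate 3. In the untreated libraries it was 6.67 to 6.85, so replicate 3 lay within that range. Each gene named here was lower in replicate 3 than in every untreated library. Without that replicate 2 of the 37 were called higher and 18 lower, in the fit that called 14.9% and 14.0% of all genes. The 5 lower calls became 1 without untreated replicate 2 and 0 without any one of the other 4 libraries, in fits that called 36 to 126 of all 12088 genes lower.

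Of the 18 megakaryocyte genes tested, 5 were called higher and 1 lower (4.59% and 3.18% of all genes were), with a median log2 difference of 0.69. Without dox-treated replicate 3 these were 9 and 2, while the higher calls became 1 without untreated replicate 3 and 0 without any one of the other 4 libraries, in fits that called 92 to 143 of all genes higher. The lower calls varied from 0 to 2 over the libraries left out. *Mmrn1* (2.72, limma adjusted p = 0.039), *Gp9* (1.28, limma adjusted p = 0.032) and *Rab27b* (1.18, limma adjusted p = 0.025) were called higher, whereas *Vwf* was called lower (-1.31, limma adjusted p = 0.018). The summed level was 707.6, 694.4 and 328.5 CPM with dox and 197.2 to 275.4 CPM without, so replicate 3 was again closest to the untreated group, as it was for *Gata2*.

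Of the 11 tested genes linked to GATA2 in progenitors and mast cells, 3 were called higher and 0 lower (4.59% and 3.18% of all genes were), with a median of 0.55, and 4 of the 11 had lower means with dox. Their summed level overlapped between the groups, at 962.1 to 1006 CPM with dox and 659.7 to 999.8 CPM without. Their mean log2 CPM did not overlap, at 4.34 to 4.48 with dox and 3.54 to 4.22 without. The higher calls became 4 without dox-treated replicate 3, beside 1 lower, and 1 without any other single library. Called higher with all libraries were *Cpa3* (2.93, limma adjusted p = 0.0096), *Ms4a2* (2.76, limma adjusted p = 0.022) and *Slc18a2* (1.5, limma adjusted p = 0.032), which encode a mast cell protease, a chain of the IgE receptor and a monoamine transporter. *Gzmb*, a granule protease, lay the other way, with 1, 3 and 15 reads with dox and 50, 38 and 34 without (limma adjusted p = 0.053, and 0.0070 without dox-treated replicate 3). Mast cell genes, erythroid genes, *Gata2* and *Cebpa* were already singled out by the study on these libraries. Their lists and values here are therefore no independent evidence. Of the 10 genes that GATA1 represses in maturing red cells, a list that includes *Gata2* and *Lyl1*, 0 were called in either direction. Their median was 0.44, with 4 higher and 1 lower at an unadjusted p under 0.05 in limma, which 29.2% of all genes reached. Without dox-treated replicate 3, 5 were called higher and 1 (*Myc*) lower, beside 14.9% and 14.0% of all genes, and without any other single library 0 were called.

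**Figure D4:**
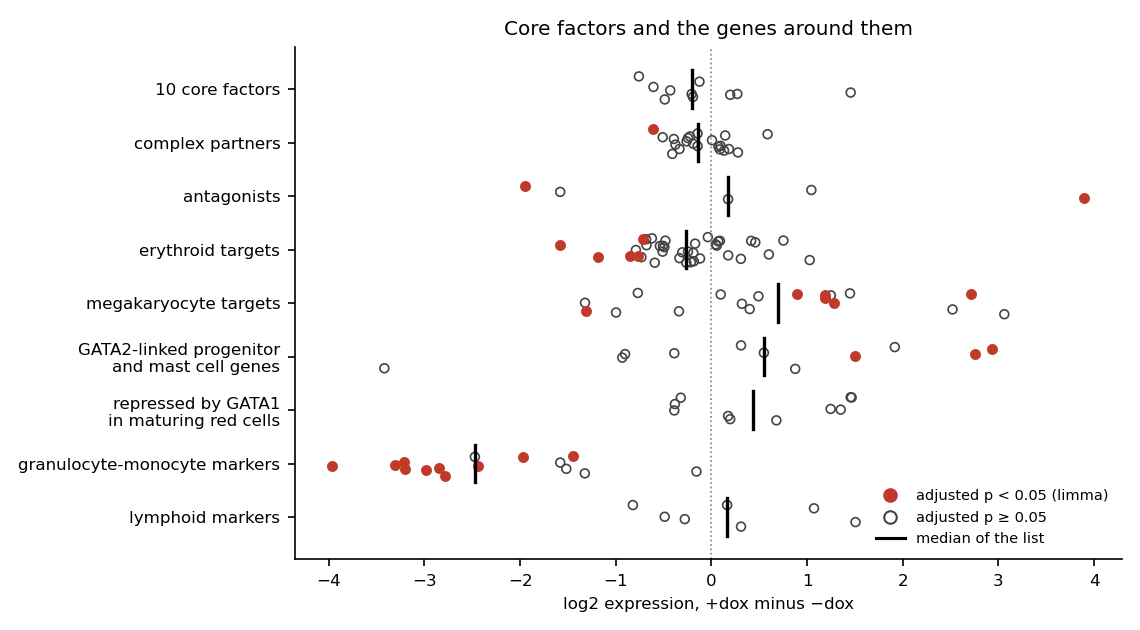
Difference in log2 expression between dox-treated and untreated MEPs (horizontal axis) for each tested gene of the 10 core factors and of 8 gene lists, spread vertically only to separate the points. Filled red points have an adjusted p under 0.05 in limma with all 6 libraries, open points do not, and the black line is the median of the list. The core factors run from *Cbfa2t3* at -0.76 to *Gata2* at 1.46, none of them filled, and the granulocyte-monocyte list has the lowest median, at -2.47.

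Of the markers of other cell types, those of granulocytes and monocytes differed between the groups. All 15 granulocyte-monocyte markers had lower means with dox and 10 were called lower (3.18% of all genes were), with 4 left without dox-treated replicate 1, 5 without untreated replicate 1, 2 without untreated replicate 3 and 7 to 11 without each of the others. Among them was *Elane* at 61.4, 75.9 and 41.1 CPM with dox and 743.4, 361.3 and 575.2 CPM without. Their summed level was 539.2 to 793.0 CPM with dox and 2504 to 5713 CPM without, and 0 of the 15 were at 0 reads in any library. Stem cell markers summed to 262.1 to 305.1 CPM with dox and 128.4 to 185.6 CPM without (8 tested, 0 called, 4 higher at an unadjusted p under 0.05 in limma, which 29.2% of all genes reached). Without dox-treated replicate 3, 5 were called higher, and without any other single library 0. In dox-treated replicate 3, *Mllt3* alone made up 165.9 of the 262.1 CPM of this sum. *Meis1* in that library (17.6 CPM) lay within its untreated range of 9.61 to 19.4 CPM. Lymphoid markers summed to 18.8 to 75.6 and 19.5 to 22.8 CPM (7 tested, 0 called, 0 at an unadjusted p under 0.05 in limma). Of the genes behind the sort, *Kit* was at 319.8, 304.4 and 322.6 CPM with dox and at 443.2, 327.4 and 485.5 CPM without, so that it was expressed in all libraries with every dox-treated value below every untreated one (log2 difference -0.39, limma adjusted p = 0.189). *Fcgr3* was at 11.3, 10.2 and 6.10 CPM with dox and 27.9, 11.4 and 19.0 CPM without (log2 difference -1.03, limma adjusted p = 0.146), again without overlap. *Cd34*, which MEPs are sorted to lack, was at 171.7, 129.2 and 62.8 CPM with dox and 57.6, 23.8 and 48.1 CPM without (log2 difference 1.47, limma adjusted p = 0.114). It was at 1.88 without dox-treated replicate 3 (limma adjusted p = 0.035), the only gene of the sort called in that fit. The part of these differences in the values of the 10 factors was not tested. In bulk libraries a smaller share of cells of a type and less RNA per cell cannot be told apart.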

How the data were processed

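Per the study's methods, adapters were removed with Cutadapt, RSEM mapped and quantified the reads against Ensembl transcripts of NCBIM37, and limma was used for normalization. The deposited values are log2 CPM. With 0.5 reads taken as added to each count, which the sources do not state, the steps between values gave whole reads for 100% of values (largest deviation 6.64e-09 reads), so CPM and reads were recovered for depth and for precision weights. Strand use and the size-factor method are not given in the sources used here. The 95% intervals printed are limma's, from the spread between libraries.

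The whole table was fitted with limma (version 3.58.1, R 4.3.3; lmFit and eBayes, two-sided, no block) over the 12088 genes that reached 1 CPM in 3 or more libraries. P-values were adjusted by Benjamini–Hochberg, and 0.05 was the threshold. The fit was also run on simulated counts with the same spread for every gene and library. Those counts do not cover a deviating library such as dox-treated replicate 3. Differences are on the log2 scale. Single comparisons within libraries used exact two-sided permutation tests. Tables were made with pandas 2.3.3 and numpy 2.4.6 in Python 3.11.15, and plots with matplotlib 3.10.9.

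All 10 members are named. Other named genes are *Nanog*, up to 4 genes per list with the smallest unadjusted limma p, the 3 genes most like *Gata1*, *Gata2* and *Klf1*, *Spi1* and *Fli1* as the partners of the within-library comparisons, and genes that overlap a member in the annotation. *Ahsp*, *Id3*, 4 megakaryocyte, 7 mast cell and 5 lymphoid genes, *Ly6a* and *Procr* matched no listed gene and were not analysed here. Members and lists were chosen with earlier results of these data known. Gene positions are those of GENCODE on NCBIM37, which named 12067 of 12101 listed genes. Promoter windows are RefSeq's, on GRCm38.p6.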

Additional observations from a re-analysis of the deposited data

How the results depend on the processing

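The number of members called (0 higher and 0 lower) became 2 higher and 3 lower with array quality weights. It became 1 higher (*Gata2*) and 0 lower with a filter of 5 CPM, with log2(CPM + 1), with a mean-variance trend, with voom precision weights and with the replicate block together with voom precision weights. Leaving out each library in turn gave 0 to 1 higher and 0 to 2 lower, and the calls came only from the fit without dox replicate 3. None of the 17 alternatives reversed the sign of any member. Over all genes (555 higher and 384 lower) the count was 2515 and 2601 with array quality weights, 909 and 747 with a mean-variance trend, and 53 and 29 with the replicate block. Leaving out each library in turn gave 92 to 1801 higher and 36 to 1687 lower, the highest without dox replicate 3. The cause was not tested. Counts in both directions stayed within 1.5 times of those reported with no filter, equal medians, quantile normalization, total-read scaling, a filter of 5 CPM, log2(CPM + 1) and both fits with voom precision weights. Total-read scaling moved the median of all genes by 0.11 (log2), and no member changed direction. Scaling moved several small differences: with quantile normalization *Tal1* was at -0.01, *Ldb1* -0.03, *Nfe2* -0.07, *Zfpm1* -0.31 and *Lmo2* 0.44, and with total-read scaling *Tal1* was at -0.08, *Ldb1* -0.10, *Nfe2* -0.02 and *Lyl1* 0.31. The replicate block (adjusted p 0.175 to 0.666 for the members, limma) called no member. Of the listed genes it left only 1 antagonist higher, 1 antagonist lower and 2 granulocyte-monocyte markers lower. The correlations of same-numbered deviations were 0.018, -0.121 and -0.299, and those of the other pairs ran from -0.204 to 0.238. With so few libraries these values cannot decide whether same-numbered libraries were handled together, and the labels do not say.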
